A study of Mus musculus with 50 samples.

Results

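Within the 10 colon samples of mice given TNBS and A1007 at 10 mpk, levels of S100a9 ranged from 1.58 to 347.59 FPKM, and these samples were compared with each other on that range. FPKM is a level per exon length and library size that the authors deposited. Samples were selected on S100a9 itself: 5 samples with at least 10 FPKM are called S100a9-high here (replicates 1, 2, 4, 5 and 8), and 5 samples below 10 FPKM are called S100a9-low (replicates 3, 6, 7, 9 and 10). They are 10 of the 50 samples of the series. The division had been proposed as inflamed against calm colon, and the values go against those names in part: every low sample held more collagen RNA than every sham sample, and 3 of 10 vehicle samples were also below 10 FPKM. The samples are therefore named by the gene that divided them.

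All mice carried the label BALBC for genotype. The other groups, of 10 samples each, were sham mice, mice given TNBS and vehicle, and mice given TNBS with A1007 at 30 or 90 mpk. TNBS is trinitrobenzene sulfonic acid, a hapten that provokes colitis in mice, and A1007 is, per the series, a compound that activates AhR, the aryl hydrocarbon receptor. The labels place all samples in 1 batch, give no age, and number the samples as replicates without naming the mouse, so p-values measure the spread between these samples. Poly(A) RNA of colon tissue was sequenced, with 14497205 to 19149227 counts per sample at 10 mpk. In such bulk tissue, fewer cells of a type and less RNA per cell cannot be told apart.

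S100a9 and its partner S100a8 form calprotectin, a protein complex stored in neutrophils and released in inflamed gut. Neutrophils enter the colon from blood: the endothelium shows selectins such as P-selectin, and epithelium and stroma secrete chemokines that bind the receptor CXCR2. Cytokines such as interleukin 1 beta and interleukin 6 amplify this, and prostaglandins made by cyclooxygenase 2 accompany it. Healing colon also lays down collagen and renews its epithelium by division of crypt cells.

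S100a9 (ENSMUSG00000056071, GRCm39 chromosome 3, 90599939 to 90603028, minus strand) was measured at 31.08, 11.41, 20.81, 347.59 and 243.62 FPKM in S100a9-high replicates 1, 2, 4, 5 and 8. It was measured at 1.75, 1.58, 2.55, 3.17 and 4.10 FPKM in S100a9-low replicates 3, 6, 7, 9 and 10. Replicates 5 and 8 thus stood far above the other 3 high samples, and the sample just inside the threshold had 11.41 FPKM against 4.10 FPKM just outside. Sham samples had 0.09 to 1.88 FPKM, so 3 of the 5 low values were above every sham sample and 2 were within the sham range. TNBS vehicle samples had 6.58 to 3904.29 FPKM (median 189.055), and 7 of 10 reached 10 FPKM. At 30 and 90 mpk, 2 of 10 samples each reached 10 FPKM, with highest values of 28.31 and 14.72 FPKM.

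**Figure D1:**
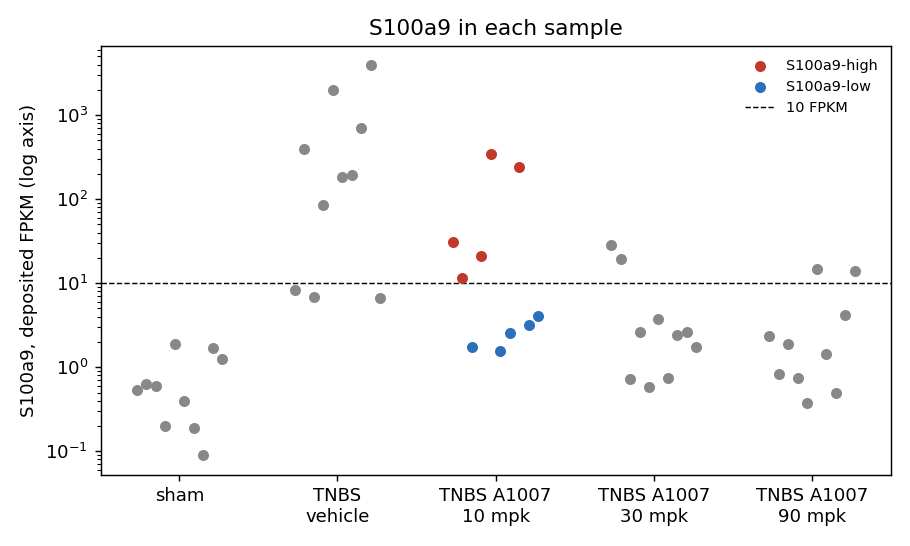
Deposited S100a9 FPKM (log axis) in each of the 50 samples by group, 1 point per sample, with the dividing value of 10 FPKM as a dashed line. At 10 mpk the S100a9-high samples (red) run from 11.41 to 347.59 FPKM and the S100a9-low samples (blue) from 1.58 to 4.10 FPKM.

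Few genes followed S100a9 across the 10 samples. A gene was called here when the deposited FPKM of the 2 sets of samples did not overlap and the fold fitted by edgeR was at least 2. By that rule 19 of 15045 genes (0.126%) were higher and 1 gene (0.00665%) was lower in S100a9-high samples. Without the fold, 178 genes did not overlap and were higher and 21 were lower, and the median log2 fold over all genes was -0.006. Because S100a9 in these same samples made the division, these counts and folds are a description and carry no p-value. The 20 genes were mediators of neutrophil recruitment, an alarmin, genes of cell division, 1 imprinted RNA and a few genes of other kinds.

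Cxcl5, a chemokine that attracts neutrophils through CXCR2, had the largest fold of the 20 genes. It was measured at 7.54, 2.82, 5.10, 57.00 and 7.79 FPKM in high replicates 1, 2, 4, 5 and 8, and at 0.69, 0.65, 0.71, 1.15 and 1.29 FPKM in low replicates 3, 6, 7, 9 and 10. Every high sample was thus above every low sample, and every low sample was above the sham range of 0.03 to 0.22 FPKM. Cxcl5 reached 3.22 FPKM at 30 mpk and 4.42 FPKM at 90 mpk, and 1.02 to 140.02 FPKM in vehicle samples. The fitted log2 fold was 4.11, and 2.45 when replicates 5 and 8 were both left out.

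Il1b, the gene of interleukin 1 beta, had 6.74, 6.42, 9.29, 8.03 and 93.03 FPKM in the high samples in the same order. The low samples had 1.24, 2.83, 4.35, 4.74 and 6.13 FPKM. The highest low sample, replicate 10 at 6.13 FPKM, lay close to the lowest high sample, replicate 2 at 6.42 FPKM. With DESeq2 size factors, another scaling of the counts, Il1b was not called. Replicate 8 alone set most of the fold: the log2 value was 2.65 with it and 0.92 without it, which is under the 2-fold limit.

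Ptgs2 encodes cyclooxygenase 2, the inducible enzyme of prostaglandin synthesis. Its levels were 8.31, 3.42, 5.30, 6.28 and 25.23 FPKM in high samples and 2.87, 2.07, 3.10, 3.27 and 3.35 FPKM in low samples, with a log2 fold of 1.69. High replicate 2 lay close to low replicate 10, at 3.42 against 3.35 FPKM. Ptgs2 was not called when overlap was judged on TMM-scaled CPM (counts scaled to library size) or with DESeq2 size factors. Leaving out replicate 8 brought the log2 fold to 0.93, again under the limit.

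Selp, the gene of P-selectin on activated endothelium and platelets, was measured at 4.22, 2.31, 1.73, 14.98 and 2.25 FPKM in high samples. It was measured at 0.98, 1.62, 1.22, 0.38 and 1.24 FPKM in low samples, whose values overlapped the sham range of 0.42 to 1.10 FPKM. The log2 fold was 2.18, and 1.23 without replicate 5. Lilrb4b, a receptor of myeloid cells, had 1.30 to 9.07 FPKM in high and 0.57 to 1.26 FPKM in low samples (log2 fold 2.09). Its log2 fold was 1.37 without replicate 8, and 0.80 without replicates 5 and 8, where it was no longer called. Il33 encodes an alarmin held in the nuclei of epithelial and stromal cells. Its range was 7.51 to 16.31 FPKM in high samples and 3.23 to 5.62 FPKM in low samples, a log2 fold of 1.14, and the low samples overlapped sham (2.67 to 5.26 FPKM). Il33 was not called without replicate 5 (log2 fold 0.91) or with a threshold of 20 FPKM.

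H19, an imprinted noncoding RNA that is abundant in fetal tissue, had another pattern. High samples had 5.81, 3.14, 5.67, 2.33 and 3.13 FPKM and low samples 1.64, 2.10, 1.98, 1.39 and 1.37 FPKM, a log2 fold of 1.19. Sham samples had 0.02 to 0.22 FPKM, so the low samples were far above sham and the 2 sets of 10 mpk samples lay close to each other.

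The sequence before the start site is shown for 3 genes of inflammation, Ptgs2, Selp and Il6, picked because each holds a match to a motif of inflammatory factors. Il6 passed only a wider filter on low counts, through the high samples, and is described below. Windows of Il33 and Clec4e also held such a match, and those of Il1b, S100a8, Cxcr2 and Trem1 held none. The 3 windows thus say nothing of the called genes as a whole. Each line gives the 250 bases before the RefSeq start on GRCm38.p6, a build other than that of the gene coordinates in this text, on the plus strand. Capitals mark matches to TTGCNNAA, a C/EBP motif, and to TGANTCA, an AP-1 motif, searched on both strands. No capitals overlap.
Ptgs2: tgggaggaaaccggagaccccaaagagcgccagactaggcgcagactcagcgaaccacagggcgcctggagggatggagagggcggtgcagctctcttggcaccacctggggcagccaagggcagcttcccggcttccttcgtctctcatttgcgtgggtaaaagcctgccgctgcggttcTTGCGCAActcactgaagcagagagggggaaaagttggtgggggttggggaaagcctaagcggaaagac
Selp: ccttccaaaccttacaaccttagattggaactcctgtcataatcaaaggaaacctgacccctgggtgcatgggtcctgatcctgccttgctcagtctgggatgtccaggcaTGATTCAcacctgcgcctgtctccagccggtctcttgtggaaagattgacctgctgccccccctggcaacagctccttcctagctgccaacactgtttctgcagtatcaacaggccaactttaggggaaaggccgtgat
Il6: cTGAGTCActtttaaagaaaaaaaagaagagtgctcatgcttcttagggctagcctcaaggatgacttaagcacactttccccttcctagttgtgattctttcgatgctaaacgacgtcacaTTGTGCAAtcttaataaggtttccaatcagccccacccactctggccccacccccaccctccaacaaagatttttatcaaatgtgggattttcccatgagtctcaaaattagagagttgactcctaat
The Ptgs2 window is chr1:150099781-150100030, the Selp window chr1:164115014-164115263 and the Il6 window chr5:30012864-30013113. Ptgs2 holds the C/EBP letters TTGCGCAA 69 bases before the start, Selp the AP-1 letters TGATTCA at 139 bases, and Il6 TGAGTCA at 249 and TTGTGCAA at 128 bases.

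Of the 19 higher genes, which do not include Il6, 12 had such a window. The C/EBP letters were in 2 of 12 (16.7%), against 10.8% of the windows of all 27025 genes in the table, and the AP-1 letters in 1 of 12 (8.33%) against 7.82%. GGGANTTCC, an NF-kappaB motif, was in 0 of 12 windows against 1.63% of all. Longer forms of this motif were not searched, so the count does not show that NF-kappaB sites are absent. GCGTG, the core bound by AhR with its partner, was in 5 of 12 (41.7%) against 30.9%. TTATGNAA, a D-box motif of clock-controlled genes, was in 2 of 12 (16.7%) against 3.63%. The letters describe these windows and show no binding.

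Many of the other called genes act in cell division. Kif20a, a kinesin of cytokinesis, was measured at 3.11, 3.55, 4.41, 9.80 and 4.80 FPKM in high samples and 2.92, 2.42, 1.65, 1.18 and 2.43 FPKM in low samples (log2 fold 1.22). Hmmr, a spindle protein and hyaluronan receptor, had 2.29 to 5.89 against 0.67 to 2.16 FPKM, and Bub1b, a spindle checkpoint kinase, 4.43 to 11.23 against 1.76 to 3.75 FPKM. With DESeq2 size factors Hmmr was not called. Ccnb1, the cyclin that starts mitosis, was measured at 5.42, 4.97, 5.39, 15.40 and 5.35 FPKM in high samples and 3.73, 3.85, 3.64, 3.57 and 2.55 FPKM in low samples. Replicate 5 was the highest sample for each of these 4 genes, and the other high samples lay close above the low ones. Without replicate 5 none of the 4 was called, with log2 folds of 0.85 for Kif20a, 0.90 for Hmmr, 0.80 for Bub1b and 0.55 for Ccnb1, which had 1.02 with all samples.

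**Figure D2:**
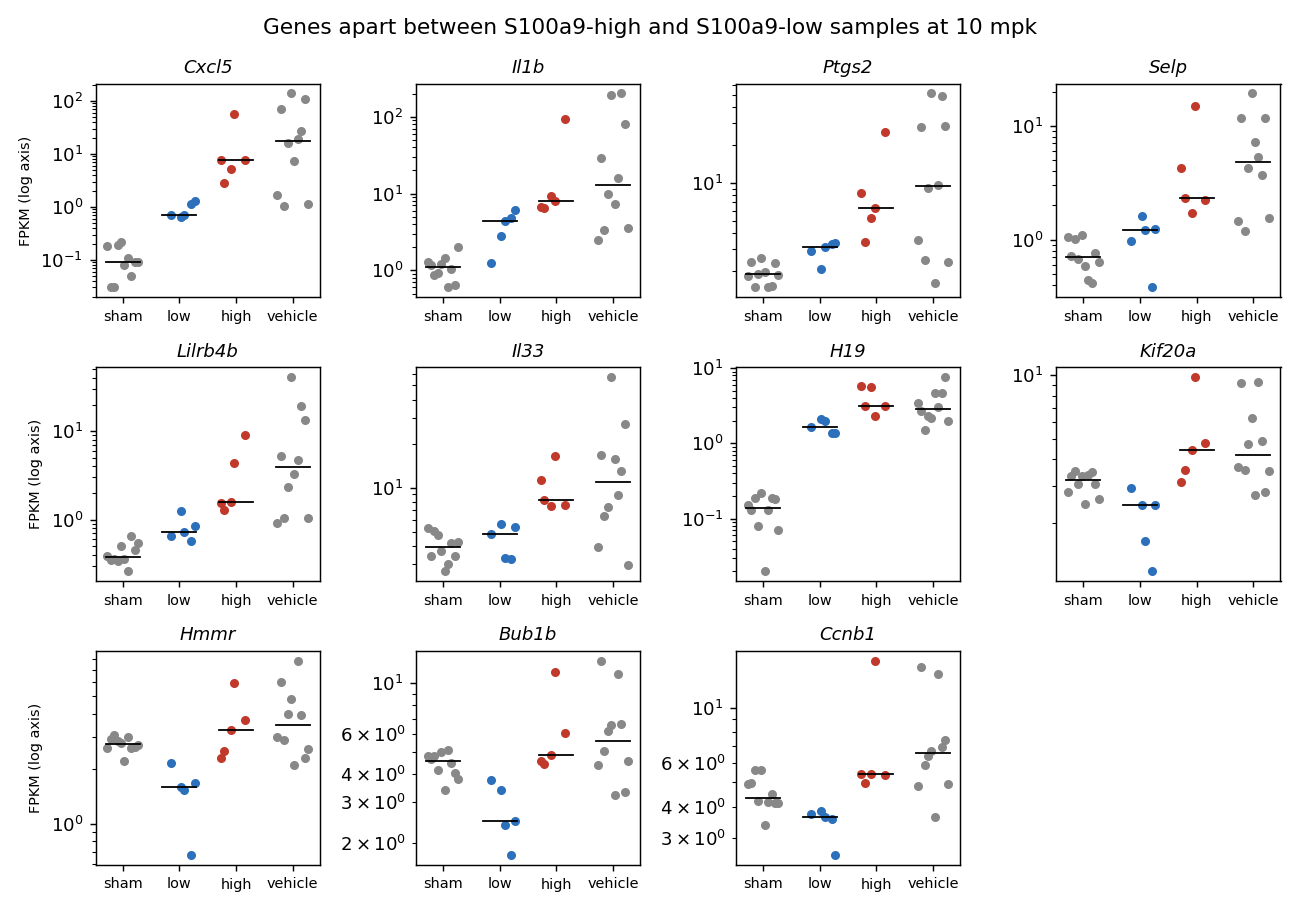
Deposited FPKM (log axis) of 11 genes called between S100a9-high (red) and S100a9-low (blue) samples at 10 mpk, beside sham and TNBS vehicle samples (grey). Each point is 1 sample and each bar a median; the red and blue points do not overlap in any panel, and low samples lie below most sham samples for Kif20a, Hmmr, Bub1b and Ccnb1.

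The proliferation list had lower values in the low samples. Of 20 proliferation genes, all 20 had a positive log2 fold (median 0.70), 6 did not overlap and 1, Ccnb1, was called. Of all 15045 genes, 178 did not overlap and were higher, and 0.126% were called higher. The 6 proliferation genes without overlap were Mki67, Top2a, Ccnb1, Ccna2, Aurka and Foxm1. Summed FPKM over the list ran from 213.92 to 472.10 in high, 157.96 to 203.54 in low, 188.86 to 259.23 in sham and 172.57 to 508.32 in vehicle samples. The median log2 fold of the list between low and sham samples was -0.30, with none of the 20 called, where 0.176% of all genes were called lower. Mki67, the proliferation antigen, had 11.42, 11.91, 15.17, 28.40 and 16.34 FPKM in high samples against 11.23, 9.50, 7.21, 9.63 and 8.29 FPKM in low samples, and 11.42 to 16.58 FPKM in sham.

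Other called genes were Fanci and Clspn, which act in the repair and copying of DNA, Cenpi and Dlgap5 of the kinetochore and spindle, Iqgap3 and Diaph3, regulators of the cytoskeleton, and the predicted genes Gm37614 and Gm20186. Crybb3, a crystallin best known from the lens, was the gene that was lower in high samples, at 0.82 to 1.01 FPKM against 1.13 to 2.51 FPKM (log2 fold -1.06).

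Neutrophil genes proper were mostly absent from that comparison, because the filter on low counts asked for a count minimum in all 10 samples and low samples held hardly any such reads. With the minimum asked of 5 of the 10 samples, a choice made after seeing the data, 34 of 16959 genes (0.2%) were higher and 3 (0.0177%) lower. The 20 genes above were all among these 37. The genes added included S100a8, Cxcr2, Clec4e, Trem1 and Il6. S100a8 was measured at 7.65, 3.98, 8.09, 230.15 and 74.74 FPKM in high samples and at 1.16, 0.87, 0.44, 0.50 and 0.83 FPKM in low samples. Cxcr2, the neutrophil chemokine receptor, had 0.99, 0.55, 1.17, 5.40 and 5.28 FPKM against 0.12, 0.18, 0.08, 0.07 and 0.09 FPKM. Replicates 5 and 8 were highest for both genes. Genes added by the wider filter could enter it through the set in which they were higher. That was the high set for most, and the low set for some, such as Cox8b. Their differences are therefore a description only.

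Clec4e and Trem1, activating receptors of myeloid cells, had 0.14 to 8.56 and 0.25 to 3.60 FPKM in high samples, against 0 to 0.08 and 0.06 to 0.18 FPKM in low samples. Il6 had 0.25 to 1.82 against 0.03 to 0.20 FPKM. Clec4e, Trem1 and Il6 were each under 1 FPKM in high replicates 1, 2 and 4.

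Not every neutrophil marker divided the samples. Of 20 markers, 6 passed the stricter filter, which kept only markers that low samples also express, and none of the 6 was called. With 0.126% of all genes called higher, that count says little of these markers. The wider filter let in further markers through the high samples, so no count over them is given. Ly6g, a surface marker of mouse neutrophils, was highest in replicate 5 at 172.13 FPKM, yet had 65.53 FPKM in low replicate 10 and 6.13 FPKM in high replicate 8. Sham samples, with at most 0.5 FPKM of S100a8, already had 20.86 to 50.8 FPKM of Ly6g. Replicates 8 and 3 (8 FPKM) were lowest for Ly6g and also for Hoxd13 and Hoxb13, and that relation was not tested. Ly6g alone thus does not show how many neutrophils a sample held. Retnlg, a resistin-like gene of neutrophils, had 66.24 FPKM in low replicate 6, more than in 4 of the 5 high samples. The summed FPKM of the list was 62.29 to 670.32 in high and 18.57 to 133 in low samples, which overlap, against 25.79 to 62.97 in sham.

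Genes of other immune cells varied within both sets. No member of the macrophage (22 compared), T cell (14), B cell (15), interferon (17) or MHC class II (8) lists was called, and with 0.126% of all genes called higher and 0.00665% lower, a count of 0 in lists of this size is near the background. The 8 MHC class II genes, which present antigen, all had negative log2 folds (median -0.665), as did all 14 T cell and all 17 interferon genes. Cd74, the MHC class II invariant chain, had 170.16 to 422.2 FPKM in high samples and 148.21 to 724.28 FPKM in low samples; low replicate 3 was the lowest of all 10 and low replicates 6 and 9 the highest. C1qa, a complement gene of tissue macrophages, had 85.67, 65.87, 54.97, 54.05 and 46.23 FPKM in high samples and 38.70, 136.65, 64.16, 131.99 and 62.92 FPKM in low samples. Summed macrophage markers reached 879.96 FPKM in low replicate 6, above all high samples (487.28 to 648.95).

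**Figure D3:**
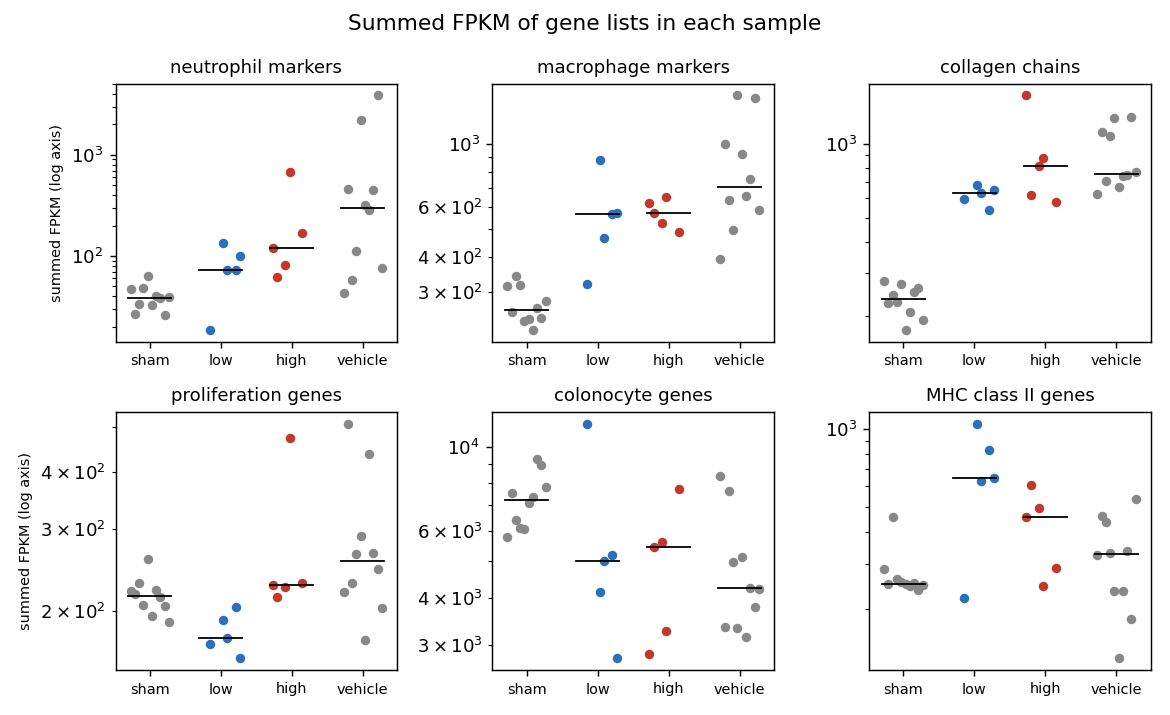
Summed deposited FPKM (log axis) of 6 gene lists in sham, S100a9-low (blue), S100a9-high (red) and TNBS vehicle samples, 1 point per sample with the median as a bar. Low and high samples overlap in 5 panels and not in the proliferation panel, and the collagen sums of both are above all sham samples.

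The chemokine, cytokine and matrix lists differed within themselves. Of 7 cytokines compared, Il1b and Il33 were called, and of 23 chemokines Cxcl5 was called while the median log2 fold was -0.26. Over all genes, 0.126% were called higher. Cxcl1, another CXCR2 ligand, had 1.12 to 15.48 FPKM in high and 0.34 to 1.42 FPKM in low samples, so low replicate 7 overlapped the high range. Timp1, an inhibitor of matrix proteases, was at 102.52 FPKM in replicate 5 and 33.49 FPKM in replicate 1, but 6.95 FPKM in high replicate 2 was below 11.59 FPKM in low replicate 6. Il11, a cytokine of stromal cells, stood at 7.45 and 11.29 FPKM in replicates 1 and 5 and at 0.13 to 0.78 FPKM in the other 8 samples. None of 18 collagen chains was called, a count near that background, although all 18 had positive log2 folds (median 0.46).

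Most epithelial genes overlapped between the sets, and some were far apart within each. Among 16 tight junction, 13 crypt stem cell and Wnt target and 16 regenerative epithelium genes, 1 each did not overlap and was higher in high samples. Of all 15045 genes, 178 did so. Mptx1, a mucosal pentraxin, was measured at 814.3, 1802.87, 1704.83, 210.6 and 392.43 FPKM in high samples and 356.9, 2719.91, 3300.84, 8524.19 and 3439.69 FPKM in low samples. All low samples except replicate 3 were thus above all high samples, and the log2 fold was -1.97. Ang4, a bactericidal ribonuclease, had 38.74 to 872.72 FPKM in high samples and 1449.01 to 3250.37 FPKM in low replicates 6, 7, 9 and 10, with 156.89 FPKM in replicate 3. Mptx1 also fell with S100a9 in the 30 samples outside 10 mpk, with a slope of -0.252 by edgeR (adjusted p = 0.011), while Ang4 had a slope of -0.288 that did not pass (adjusted p = 0.0564). Close copies such as the Mptx genes may share reads.

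Clca1, a secreted goblet cell protein, had a log2 fold of -1.18, with 259.43 to 2043.9 FPKM in high and 652.11 to 4941.1 FPKM in low samples. Car1, a carbonic anhydrase of colonocytes, had 761.85 to 3492.88 FPKM in high samples and 529.5 to 6040.57 FPKM in low samples, both extremes being low samples (replicates 10 and 3). Insl5, a peptide of enteroendocrine cells of the distal colon, had 17.69 FPKM in low replicate 3 and 23.02 FPKM in high replicate 8, against 58.49 to 223.7 FPKM in the other 8 samples. Mcpt1, a mast cell protease, was at 885.93 FPKM in low replicate 6 and 338.25 FPKM in high replicate 1, and at 6.09 to 106.09 FPKM elsewhere at 10 mpk. None of the 25 colonocyte, 16 goblet cell, 12 enteroendocrine and tuft cell or 16 tight junction genes compared was called, again near the background share of all genes.

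AhR targets overlapped between the sets, apart from Cyp1b1, for which the sets nearly touched. Cyp1a1, the classical AhR target, had 0.13 to 0.40 FPKM in high samples and 0.07 to 0.52 FPKM in low samples, beside 0.04 to 0.51 FPKM in sham. Of 16 genes of the AhR list, 10 were compared and none was called. With 0.126% of all genes called higher and 0.00665% lower, that count is near the background. Cyp1b1, another cytochrome P450 gene that AhR induces, did not overlap between the sets (0.35 to 0.52 against 0.13 to 0.34 FPKM) with a fold under 2. Its levels were all under 1 FPKM there. Of all 15045 genes, 178 did not overlap and were higher, so 1 gene says little of the list. Ahrr, the AhR repressor, had 0.16 to 0.48 against 0.23 to 0.35 FPKM, and Nqo1, an oxidoreductase, 9.55 to 25.89 against 12.11 to 26.96 FPKM. Aldh1a3, a retinal dehydrogenase on the AhR list, had 3.96 to 37.73 FPKM in high samples, with replicates 1 and 5 on top, and 2.52 to 7.7 FPKM in low samples, all above sham (1.47 to 2.24 FPKM).

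Samples that the division did not use gave a test of the same relation. In 30 vehicle, 30 mpk and 90 mpk samples, edgeR's quasi-likelihood test asked for each gene whether it changed with log2 S100a9 within the labelled groups. Of 18329 genes, 1399 (7.63%) rose and 747 (4.08%) fell with S100a9 at a Benjamini-Hochberg adjusted p under 0.05. Of the 19 genes higher in S100a9-high samples, 9 rose and none fell. They were Cxcl5, Il1b, Selp, Lilrb4b, Ptgs2, Il33, H19, Cenpi and Gm20186. Crybb3 fell, by 0.135 per log2 unit (adjusted p = 0.0405).

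Cxcl5 rose by 0.80 log2 units per log2 unit of S100a9 (SE 0.056, adjusted p = 5.46e-11), Il1b by 0.60 (SE 0.07, adjusted p = 1.53e-06) and Il33 by 0.28 (SE 0.041, adjusted p = 2.74e-05), all by edgeR. The recruitment genes thus changed with S100a9 in other samples too. Of the division genes named here only Cenpi passed, at 0.093 (adjusted p = 0.0456). Kif20a had a slope of 0.059 (SE 0.035, adjusted p = 0.277), Bub1b of 0.05 (adjusted p = 0.358) and Ccnb1 of 0.078 (SE 0.034, adjusted p = 0.129). Of the 20 proliferation genes, 2 rose, Rrm2 and Tyms of nucleotide synthesis, and none fell (median slope 0.065). S100a8 had a slope of 1.08, with medians of 86.725 FPKM in vehicle samples and 0.44 FPKM at 30 mpk. Neutrophil markers could pass the filter of this fit through the samples high in S100a9, so no count over them is given. Of 20 T cell, 17 interferon and 8 MHC class II genes none rose or fell, where 7.63% of all genes rose and 4.08% fell.

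Vehicle samples carried most of this. Vehicle samples 5 and 9 were farthest from the median of S100a9, and without them 186 genes were called in place of 2146. Cxcl5, Il1b, Selp, Lilrb4b, H19 and Il33 were still called, and Ptgs2 was not. Within vehicle alone 1054 genes were called, within 30 mpk alone 1 and within 90 mpk alone 4. Ptgs2 had a slope of -0.11 within 30 mpk. H19 was not called within vehicle samples alone, where its slope was 0.15.

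**Figure D4:**
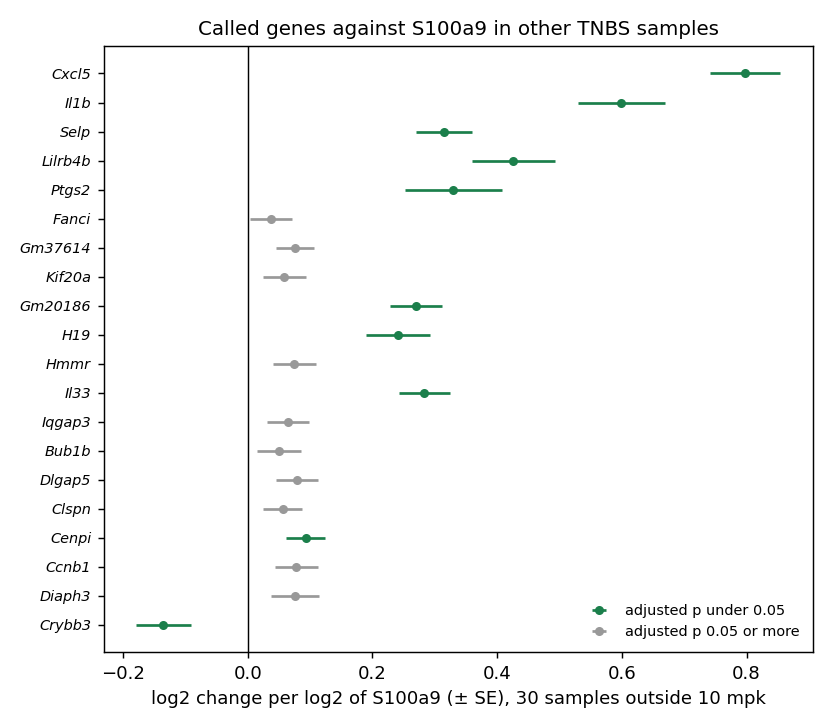
Log2 change per log2 unit of S100a9 (± SE) in 30 TNBS samples outside 10 mpk for the 20 genes called at 10 mpk, in order of their fold there. Green points have an edgeR adjusted p under 0.05 (9 rising genes and Crybb3 falling), and grey points, most of them division genes, do not.

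The comparison of TNBS vehicle with sham, also in samples outside the division, was far broader. Of 16819 genes tested with edgeR, 3044 (18.1%) rose and 2457 (14.6%) fell. Of the 19 genes, 16 rose in vehicle samples and none fell. Cxcl5 rose by 8.48 on the log2 scale (adjusted p = 1.45e-05), Il1b by 5.58 (adjusted p = 9.66e-05), H19 by 4.68 (adjusted p = 1.57e-08) and Ccnb1 by 0.71 (adjusted p = 0.0103). Of the 20 proliferation genes 13 rose.

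S100a9-low samples still differed from sham, in collagen and macrophage genes among others. By the same rule of overlap and fold, 227 of 15342 genes (1.48%) were higher and 27 (0.176%) lower in the 5 low samples than in 10 sham samples, again as a description. Without the fold, 535 genes did not overlap and were higher and 514 were lower. Leaving out low replicate 3 gave 457 higher and 162 lower genes with the fold. The filter drops genes that sham samples hardly express, such as Cxcl5 and Timp1. Between high and low samples 226 of the 227 genes were compared, with a median log2 fold of 0.05 and none called, where 0.126% of all genes were called higher, so that this count says little of these genes.

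Collagen genes were the clearest group, with 11 of 18 called, where 1.48% of all genes were called higher, and a median log2 fold of 1.11. Col1a1, the main chain of collagen I, was measured at 67.69, 87.42, 76.43, 75.51 and 72.89 FPKM in low replicates 3, 6, 7, 9 and 10. The high samples had 285.77, 75.98, 118.58, 132.48 and 63.62 FPKM, and sham 13.70 to 25.17 FPKM. Low and high samples overlapped, and both sets were above every sham sample. Col3a1, of collagen III, had 131.42 to 194.98 FPKM in low, 153.56 to 461.77 in high, 36.73 to 66.15 in sham and 169.82 to 430.14 FPKM in vehicle samples. Summed collagen FPKM was 538.83 to 682.23 in low samples, 175.91 to 277.49 in sham and 624.07 to 1285 in vehicle samples.

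Genes that build or cut matrix were among the largest differences from sham. Lox, which crosslinks collagen, had 4.94, 6.25, 6.96, 6.79 and 5.52 FPKM in low samples against 0.68 to 1.28 FPKM in sham (log2 fold 2.83). High samples had 26.61, 6.32, 10.52, 32.21 and 6.21 FPKM, so 2 high samples were within the low range. Mmp10, a stromelysin, had a log2 fold of 2.45 and 1.81 to 6.16 FPKM in low samples, Mmp9, a gelatinase of neutrophils and macrophages, 2.37 and 1.47 to 5.71 FPKM. Mfap4, an elastic fibre protein, was at 17.30 to 35.88 FPKM against 3.81 to 6.56 FPKM, and Cpxm1, a carboxypeptidase-like protein, at 2.94 to 9.19 against 0.71 to 1.71 FPKM. In the slope test Mfap4 and Cpxm1 did not pass (adjusted p = 0.626 and 0.463), while Lox rose with S100a9 by 0.30 (adjusted p = 4e-05).

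Macrophage markers were also called against sham, 11 of 23, where 1.48% of all genes were called higher, with a median log2 fold of 1.00. Spp1, the gene of osteopontin, had a log2 fold of 2.90, the largest among the called genes, and 1.34 without replicate 6. That sample had 17.73 FPKM and the other 4 low samples 1.01 to 1.88 FPKM, against 0.25 to 0.95 FPKM in sham. Adgre1, the gene of the F4/80 antigen, was at 5.04 to 7.29 FPKM in low samples and 2.31 to 3.82 FPKM in sham. Trem2 and the C1q genes were called as well. The summed list overlapped sham only through replicate 3, at 319.68 FPKM against a sham range of 220.45 to 342.68 FPKM.

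Among the 27 genes lower than in sham were a cytochrome P450, a kinase and a clock gene. Of the 27, 19 were compared between high and low samples, and Fanci and Gm37614 were called there, higher in high samples. Cyp2d9, a cytochrome P450, had 0.71 to 2.93 FPKM in low samples against 5.02 to 8.30 FPKM in sham (log2 fold -1.85), and Sgk1, a kinase that promotes sodium uptake, 13.62 to 25.47 against 43.06 to 113.45 FPKM (log2 fold -1.56). Aadac, a lipid esterase, and Per1, a clock repressor, had log2 folds of -1.22 and -1.15. Rims4, a synaptic protein, and Sh2d6, an adaptor protein, were at -1.43 and -1.30. For Cyp2d9, Sgk1, Aadac, Per1, Rims4 and Sh2d6 the high samples had log2 folds against the low ones of -0.49, 0.325, -0.04, 0.30, 0.17 and 0.235. Absorptive colonocyte genes had a median log2 fold of -0.31 with none of 26 called, near the 0.176% of all genes called lower.

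S100a9-high samples overlapped TNBS vehicle samples for nearly all genes. Of 15277 genes, 2 (0.0131%) did not overlap with a fold of 2, both lower in high samples. Without the fold, 4 genes did not overlap and were higher and 5 were lower. Vehicle samples had 6.58 to 3904.29 FPKM of S100a9, a range that holds all high samples. Genes that follow S100a9 could thus hardly fail to overlap, and the count does not show that the sets are alike. Npas2, a clock transcription factor, had 1.04 to 2.31 FPKM against 2.32 to 4.77 FPKM in vehicle samples (log2 fold -1.29). Arg2, a mitochondrial arginase, had 7.69 to 14.65 against 14.83 to 41.94 FPKM (log2 fold -1.09). The sets nearly touched for both genes, and neither was called when overlap was judged on TMM-scaled CPM (counts scaled to library size) or with DESeq2 size factors. The difference was not particular to S100a9-high samples, since sham and low samples were below vehicle samples as well. Npas2 had 1.21 to 1.64 FPKM in sham and 0.83 to 1.67 FPKM in low samples. Arg2 had 6.21 to 9.65 FPKM in sham and 8.55 to 12.25 FPKM in low samples. Without replicate 5, 23 genes were called between high and vehicle samples.

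Some samples stood apart within the sets. Replicates 3 (low) and 8 (high) had 1.37 and 0.63 FPKM of Hoxd13 and 7.17 and 3.96 FPKM of Hoxb13, Hox genes of the distal colon, against 22.1 to 68.96 and 48.54 to 102.86 FPKM in the other 8 samples. In the first principal component, with 34.5% of the variance of expression, they lay together at -46.3 and -39.8, and the sets did not separate. Without replicate 3 the comparison of high with low samples called 83 genes in place of 20 (53 higher and 30 lower), without both 76 (55 higher and 21 lower), and the part of position along the colon in the results was not tested. Low replicate 6 had 0.05 FPKM of Xist against 18.32 to 41.29 FPKM in the others, and leaving it out gave 39 genes. It also held the most mast cell and eosinophil RNA, 1407.81 summed FPKM against 32.63 to 565.26. Pancreatic RNA was highest in low replicate 7, at 1040.23 summed FPKM against 33.31 to 356.11 in the other 9 samples, and its part was not tested. Colonocyte genes were present in all 10: Krt20, a keratin of surface colonocytes, was at 157.52 to 419.96 FPKM.

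**Figure D5:**
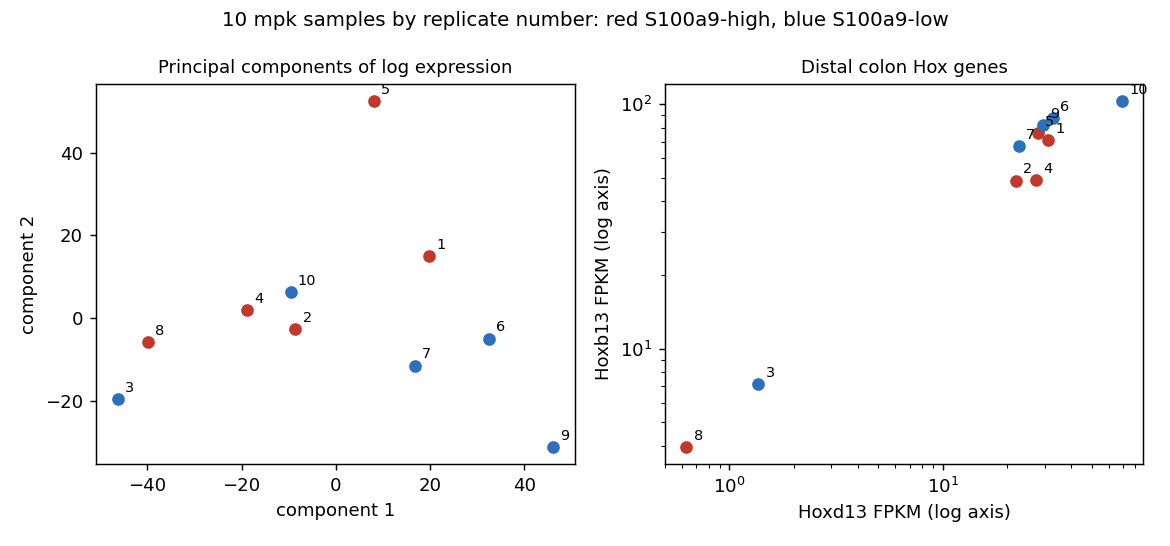
Left, the 10 mpk samples on the first and second principal components; right, their Hoxd13 and Hoxb13 FPKM (log axes), with replicate numbers beside the points. Replicates 3 (low) and 8 (high) lie together in both panels, and replicate 5 is highest on the second component.

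How many genes were called rested on single samples. Without replicate 5 there were 11 genes, 9 of them among the 20, and without replicates 5 and 8 there were also 11, of which 6 were among the 20. Leaving out replicate 1, 2, 4 or 10 gave 41, 72, 40 and 33 genes. Cxcl5, Selp and H19 were called in each of these. With a threshold of 20 FPKM for S100a9, Cxcl5 was called and Selp and H19 were not.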

How the data were processed

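The authors deposited raw counts per gene, FPKM values and exon lengths for 56691 genes in 1 table. Recomputing FPKM from the deposited counts, exon lengths and library totals matched 99.997% of values backed by 500 or more counts to within 1%. Per the submitters' processing notes, the mouse build was GRCm39 and the tools were HISAT2 2.2.1, HTSeq 0.6.1, cutadapt 1.9.1 and DESeq2; the sources used here do not give their roles or the strand setting. Symbols were missing for 2639 genes.

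The 10 mpk samples were divided by deposited S100a9 FPKM at 10. Folds came from edgeR 4.0.16 in R 4.3.3 (glmQLFit, TMM scaling, filterByExpr with a count minimum of 10 and no groups, S100a9 left out). A gene was called where FPKM did not overlap and the fold was at least 2, with no p-value. Vehicle against sham (20 samples) and the S100a9 slope (30 samples, labelled group as covariate, S100a9 as log2 CPM with prior count 2) were tested with edgeR's quasi-likelihood test (robust), Benjamini-Hochberg adjusted over all genes, called under 0.05. The scripts were checked on simulated counts.

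Of 609 genes in 35 lists, 605 were in the table. The members and lists were chosen with earlier results of these data known. Named genes were the 12 largest rises and falls among called genes averaging 2 FPKM or more in a group (6 for the comparisons with sham and vehicle), without predicted genes, up to 4 called members of each list or otherwise 2 with the highest FPKM, all AhR list genes and S100a8. The other genes named were chosen after their values were seen, among them those added by the wider filter, Mki67, Rrm2, Tyms, Timp1, Il11, Cxcl1, Adgre1, Trem2 and Krt20.

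Promoter sequences are from RefSeq, on GRCm38.p6. Alternatives were other scalings, DESeq2 1.42.0, limma 3.58.1 on log2 FPKM with pseudocounts 0.1, 0.5 and 1, other filters and thresholds, the replicate number as a block, and samples left out. Counting depth limits genes under 1 FPKM most.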

Additional observations from a re-analysis of the deposited data

Results flagged for a closer look

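Within the sets of 5 samples, the highest or lowest sample was compared with the others by its gap to the nearest sample over the whole range, both taken on the log2(FPKM + 0.5) scale, against a critical value of 0.71. Of 94 sets of values, 9 passed, and chance alone gives about 1 in 20.

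Il1b in high replicate 8 had a ratio of 0.867, at 93.03 FPKM against 6.42 to 9.29 FPKM in the other high samples. Ccnb1 stood apart in high replicate 5 (0.926, at 15.4 FPKM against 4.97 to 5.42 FPKM) and in low replicate 10 (0.813, at 2.55 against 3.57 to 3.85 FPKM). The proliferation list as a sum gave 0.908 for high replicate 5, at 472.1 FPKM against 213.92 to 230.09 FPKM.

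Low replicate 3 had the lowest sums of cytokine genes (0.876, at 39.39 FPKM against 93.27 to 105.3 FPKM) and of regenerative epithelium genes (0.758, at 232.93 against 417.76 to 503.39 FPKM). High replicate 8 was lowest for the genes of colon position (0.783, at 84.82 against 144.18 to 167.04 FPKM). Low replicate 10 was lowest for smooth muscle genes (0.778, at 2256.14 against 3224.73 to 3571.06 FPKM). Low replicate 6 was lowest for sex-linked genes (0.837, at 0.08 against 20.29 to 41.3 FPKM), since Xist was nearly absent.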

How the results depend on the processing

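The 20 genes called between S100a9-high and S100a9-low samples became 82 with no filter on low counts, 37 with the wider filter chosen after seeing the data, 8 with folds from mean log2(FPKM + 0.5), 43 with a threshold of 20 FPKM and 39 without the sample low in Xist. Leaving out the samples highest in S100a9 gave 11 and those lowest in Hoxd13 76, both chosen after seeing the data; leaving out 1 sample gave 11 to 83. Scaled CPM, DESeq2 size factors, upper-quartile scaling and a threshold of 5 FPKM gave 17, 15, 22 and 20. The 254 genes between low and sham samples became 143 with folds from mean log2 FPKM, 515 without replicates 3 and 6, chosen after seeing the data, and 233 to 619 (without replicate 3) when 1 sample was left out. The 2 genes between high and vehicle samples became 1 with scaled CPM and with DESeq2, higher in high samples and not among the 2, 1 of the 2 with mean log2 FPKM, and 9 with no filter, and 1 to 23 when 1 sample was left out.

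The 2146 genes of the S100a9 slope became 624 with the replicate block, 1054 in vehicle, 1 in 30 mpk and 4 in 90 mpk samples alone, and 186 without vehicle samples 5 and 9. H19, with a slope of 0.241, was not called with the block (0.183). Ptgs2 reversed to -0.113 within 30 mpk. With DESeq2 there were 2741, and with limma 1832 to 1869. Same-numbered samples deviated together little, with correlations of -0.145 to 0.255 between vehicle and sham (over 0.1 for 1 of 10 numbers). In the slope samples the correlations were -0.118 to 0.136 (over 0.1 for 2 of 10). The labels do not say what the number means, and such correlations cannot exclude a pairing. For vehicle against sham the block gave 4567 genes, where 5501 were called. The causes were not tested.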
